A study of Mus musculus with 12 samples.

Results

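Zeb2, its overlapping antisense gene Zeb2os, its paralog Zeb1 and the transcription factor gene Nfil3 were followed across 12 RNA-seq libraries of mouse Ly6C+ monocytes. These 4 genes, of 55487 in the deposited count table, were chosen by symbol, with earlier results of these data known. The gene lists used below were also chosen with those results known. The libraries formed 4 groups of 3, named by their titles as BM, KO, Mixed and WT. BM was bone marrow labelled WT, with no age given. KO was fetal liver of stage E13.5 (embryonic day) labelled KO, WT was fetal liver labelled WT (WT 1 at E13.5, WT 2 and WT 3 at E15.5), and Mixed was fetal liver of E15.5, also labelled WT. Neither the gene nor the allele behind the KO label, nor the meaning of "Mixed", is given for the samples. The series title asks how cMaf relates to Zeb2 expression, and the design text names a line called Z165KO, known from other work to lack an upstream Zeb2 enhancer while the exons remain. That text describes tissue macrophages from other organs, so whether the KO libraries carry this deletion is not given. If they do, the Zeb2 level is a readout and no check of a deleted exon. RNA came from 50k monocytes per library, and nothing in the labels states whether separate animals stand behind the 3 libraries in each group. P-values therefore measure the spread between these libraries, which may be technical.

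ZEB2 and ZEB1 are closely related zinc-finger repressors that bind E-box DNA in pairs of sites and recruit corepressors such as CtBP. They are best known for switching off epithelial genes, and Zeb2 also sets cell identity among monocytes, dendritic cells and lymphocytes. NFIL3 is a bZIP repressor of D-box sites that the PAR bZIP activators also use. In mouse dendritic cell progenitors NFIL3 is known to lower Zeb2, and ZEB2 to lower Id2.

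Levels are CPM (counts scaled to a common library total), with totals adjusted by TMM, the trimmed mean of M values, and are given as mean ± SD of 3 libraries. Total counts ran from 17384956 to 24473502 per library. A gene is said to be higher or lower, or to have risen or fallen, where the Benjamini-Hochberg adjusted p of edgeR's quasi-likelihood test over 14618 genes was under 0.05. All 4 members passed the filter on low counts. The classical monocyte list checked the label: its 10 genes, among them Ly6c2, Ccr2 and Csf1r, were all detected in every library, with 3 higher and 7 lower in KO than in WT and summed levels of 37808 to 38716 CPM in BM, 14327 to 14420 in Mixed, 10710 to 12148 in WT and 7387 to 8432 in KO. Conventional dendritic cell genes went the other way: 9 of 10 were higher in KO than in WT and 1, Cd209a, was lower, with sums of 823 to 861 CPM in KO, 87.1 to 106 in WT, 87.2 to 97.2 in Mixed and 284 to 301 in BM. Cd209a had no count in KO 1 and KO 2. Neutrophil genes summed to 12921 to 15689 CPM in KO and 10019 to 12497 in WT (4 of 10 higher and 2 lower). Beside these counts, 18.2% of all genes were higher and 19.9% lower in KO than in WT. The part of these other cell types' genes in the results below was not tested.

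Zeb2 (ENSMUSG00000026872) lies on the minus strand of chromosome 2 at chr2:44983632-45117395, and Zeb2os (ENSMUSG00000052248) on the plus strand within it, at chr2:45110707-45114087 (GRCm38, GENCODE). Their exons share 653 bases, which is 32.8% of the 1990 exonic bases of Zeb2os and 3.27% of the 19942 of Zeb2. A stretch of 30 of these bases, at chr2:45113099-45113128, is shown as each transcript carries it, because a read from here fits both genes in libraries that do not mark strand.
Zeb2, minus strand: gcgcgtgtttcagggtctctcttctctccc
Zeb2os, plus strand: gggagagaagagagaccctgaaacacgcgc
Nfil3 (ENSMUSG00000056749) lies on the minus strand at chr13:52967209-52981073. The RefSeq promoter table (GRCm38.p6) held windows of 300 bases around the starts of 2 members, 4 for Zeb2 and 1 for Nfil3. The bases before the outermost start of Zeb2 (chr2:45117443-45117692) and before the annotated start of Nfil3 (chr13:52981074-52981289) are shown because both factors are placed in a circuit in which one acts on the other. Capitals mark CACCT, the core that ZEB proteins read.
Zeb2 promoter, minus strand: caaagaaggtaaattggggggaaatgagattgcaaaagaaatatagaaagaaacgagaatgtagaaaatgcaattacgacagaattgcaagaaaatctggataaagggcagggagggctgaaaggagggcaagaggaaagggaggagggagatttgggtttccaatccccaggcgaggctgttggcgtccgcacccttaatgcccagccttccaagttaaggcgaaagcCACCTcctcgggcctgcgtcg
Nfil3 promoter, minus strand: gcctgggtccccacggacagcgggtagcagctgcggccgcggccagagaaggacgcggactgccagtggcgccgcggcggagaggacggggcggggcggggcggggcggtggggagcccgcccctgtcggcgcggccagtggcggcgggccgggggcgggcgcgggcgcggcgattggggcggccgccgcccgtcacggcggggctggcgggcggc
The Zeb2 stretch is 49.6% G and C, and the Nfil3 stretch 84.7%. On either strand, the 4 Zeb2 windows held 1, 2, 1 and 0 cores, and the windows with 2 and 1 overlap and share a match. The Nfil3 window held 0. Of all 32851 windows of this length, 51.9% held a core. The full ZEB E-box CACCTG (which contains the core, 20.2% of windows), the D-box TTANGTAA (2.32%) and the palindromic Maf element TGCTGACTCAGCA (0.00304%, 1 window) had no match in the windows of Zeb2 or Nfil3. Such a search describes letters in these windows and says nothing about binding.

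Zeb2 was lowest in KO and highest in bone marrow. It stood at 141, 143 and 165 CPM in WT 1, 2 and 3, at 179, 159 and 165 in Mixed, at 23.8, 20.1 and 22.5 in KO, and at 311, 320 and 338 in BM. The KO and BM libraries overlapped with no other group, and the ranges of WT and Mixed met. In KO it fell by 2.75 on the log2 scale against WT (SE 0.0771, 6.75-fold, adjusted p = 3.95e-17), where 38.1% of all genes were called. By size of p it was in place 9 of 14618, and by log2 fold change in place 77 from the lowest. Against Mixed the fall was 7.54-fold (adjusted p = 1.63e-17), in a comparison with 36.7% of genes called. Bone marrow was 2.16-fold above WT (log2 1.11, SE 0.0685, adjusted p = 4.68e-12; 64% of genes called), 1.93-fold above Mixed (adjusted p = 8.07e-11; 58.4% called) and 14.6-fold above KO (adjusted p = 4.65e-20; 63.8% called). These comparisons share libraries. For scale, groups did not overlap in 47.4% of all genes for KO and WT, 48.3% for KO and Mixed, 27% for Mixed and WT, 68.1% for BM and WT, 64.2% for BM and Mixed and 67.7% for BM and KO. Mixed and WT did not differ past the threshold (log2 0.16, 95% interval 0.03 to 0.29, adjusted p = 0.164; 8.07% of genes called), but without WT 3, the WT library with the highest Zeb2, the adjusted p was 0.0308. WT 3 also stood further from WT 1 and WT 2 than those did from each other. The chi-square per degree of freedom, which grows with differences beyond count noise, was 11.3 and 11.1 for the pairs with WT 3. For WT 1 and WT 2 it was 4.63. In bulk RNA a lower level through fewer cells with the transcript and through less of it per cell cannot be told apart.

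**Figure D1:**
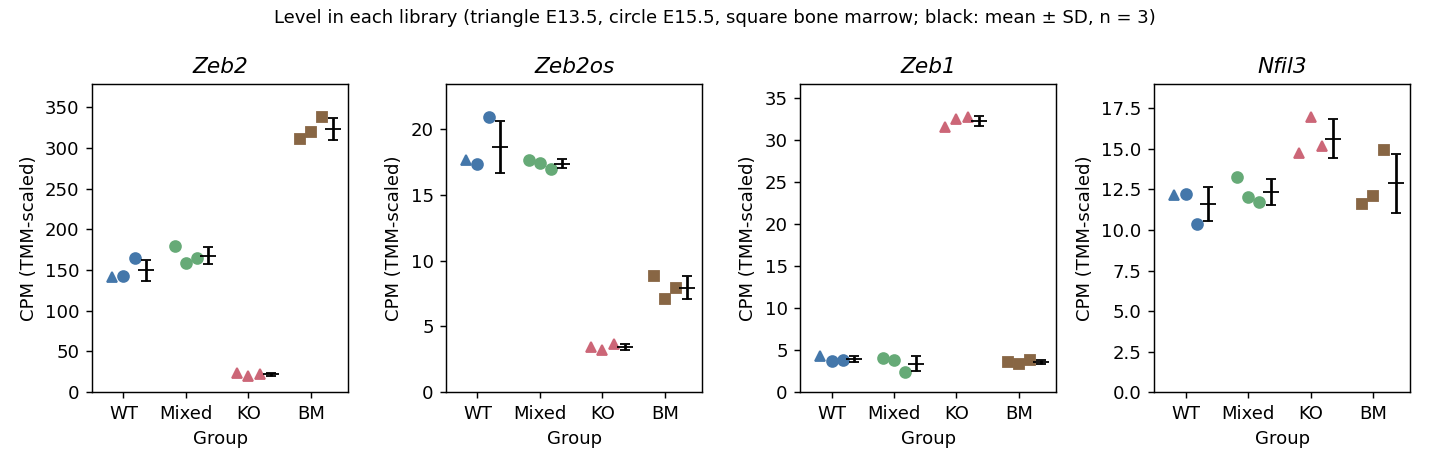
Level of each gene in every library, in TMM-scaled CPM on a linear axis from 0, by group; triangles are E13.5, circles E15.5 and squares bone marrow, and black bars give mean ± SD of 3 libraries. By group mean, Zeb2 and Zeb2os are lowest in KO (22.1 and 3.42 CPM) and Zeb1 is highest there (32.3 CPM). The group means of Nfil3 run from 11.6 to 15.6 CPM.

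The age label is in part bound up with genotype in KO against WT, since all KO libraries and 1 WT library were of E13.5. All Mixed libraries were of E15.5, so age and the KO label cannot be told apart in any comparison of KO with Mixed. WT 1 had 141 CPM of Zeb2, and so lay 6.39-fold above the KO mean at the same age. With embryonic day added as a covariate for the 9 libraries from fetal liver, a fit that sets KO against WT 1, Zeb2 was lower by a log2 value of -2.65 (SE 0.0984, adjusted p = 6.42e-12), Zeb2os by -2.35 (adjusted p = 1.30e-08) and Zeb1 higher by 2.91 (adjusted p = 1.24e-07). That fit rests on a single WT library. At E15.5 the Mixed mean was 1.09 times the mean of WT 2 and WT 3 for Zeb2 and for Nfil3, 0.906 times for Zeb2os and 0.9095 times for Zeb1.

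Zeb2os was also lowest in KO, but in bone marrow it stood below fetal liver WT while Zeb2 stood above it. Its levels were 17.7, 17.4 and 21.0 CPM in WT, 17.7, 17.4 and 16.98 in Mixed, 3.41, 3.21 and 3.63 in KO, and 8.85, 7.08 and 7.94 in BM. WT and Mixed overlapped, BM lay below both, and KO below all. A natural antisense transcript of ZEB2 is known in human cells to affect splicing of the sense transcript. Against WT, Zeb2os in KO fell 5.45-fold (log2 -2.45, SE 0.134, adjusted p = 2.79e-12) and was 2.35-fold lower in BM (log2 -1.23, SE 0.124, adjusted p = 1.34e-08). BM was 2.19-fold below Mixed (adjusted p = 6.86e-08) and 2.32-fold above KO (adjusted p = 1.24e-07), and KO was 5.06-fold below Mixed (adjusted p = 5.67e-12). Mixed and WT were not distinguished (log2 -0.11, 95% interval -0.33 to 0.12, adjusted p = 0.657).

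The ratio of the antisense gene to Zeb2 was lowest in bone marrow and highest in KO, although no pair of groups could pass the test at this number of libraries. Per 100 Zeb2 counts there were 12.5 ± 0.285 Zeb2os counts in WT, 10.4 ± 0.571 in Mixed, 15.48 ± 1.05 in KO and 2.47 ± 0.331 in BM. No 2 groups overlapped: the ratios were 12.2 to 12.7 in WT, 9.86 to 10.998 in Mixed, 14.3 to 16.3 in KO and 2.21 to 2.84 in BM. Each of the 6 pairs gave p = 0.1 in an exact two-sided permutation test, the smallest p that 3 against 3 libraries allow, and 0.1 after adjustment over the 6. On the deposited length-scaled values (TPM, which divides counts by transcript length) the ratio was 35.0 ± 2.99 in WT, 27.6 ± 4.17 in Mixed, 46.4 ± 8.15 in KO and 7.09 ± 0.609 in BM, in the same order, and Mixed 2 (32.4) then lay above WT 1 (32.1).

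**Figure D2:**
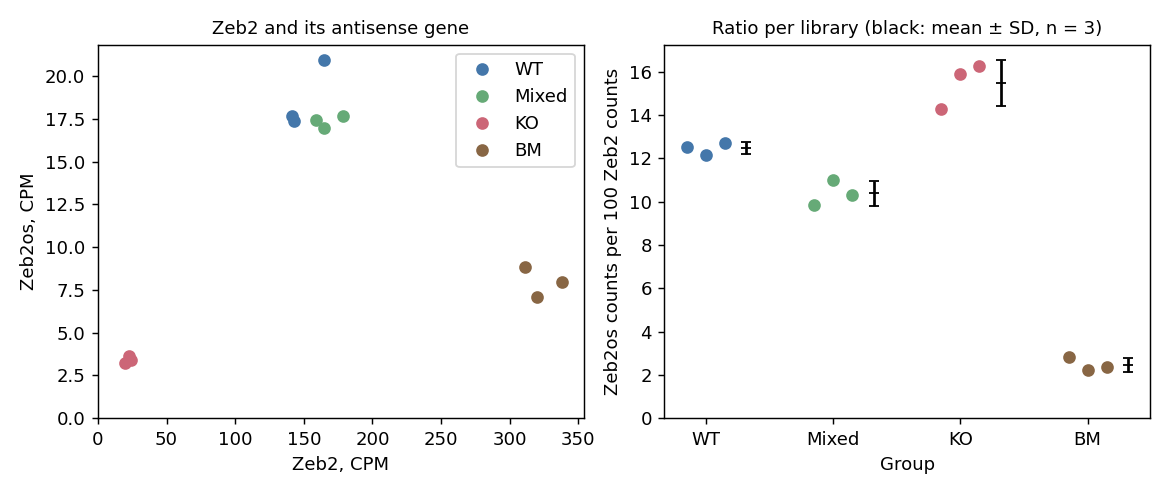
Left, Zeb2os against Zeb2 in CPM for each of the 12 libraries; right, Zeb2os counts per 100 Zeb2 counts per library with mean ± SD (n = 3). Bone marrow has the most Zeb2 (311 to 338 CPM) with 7.08 to 8.85 CPM of Zeb2os, and its ratio of 2.47 is the lowest of the 4 groups.

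How reads were divided between the 2 genes bears on these values. The Zeb2 estimate was not a whole number in any of the 12 libraries, whereas Zeb1 and Nfil3 had whole counts. The sum of Zeb2 and Zeb2os was whole in 6 of 12 (tolerance 0.005), and with Gm27761, a further small RNA gene inside Zeb2os, in 12 of 12 (tolerance 0.015). Reads were thus apportioned among these overlapping genes by estimate, and the kit is not stated to keep strand, so the level of Zeb2os is uncertain. With the counts of Zeb2 and Zeb2os added and tested as 1 gene, the log2 fold change was -2.72 in KO against WT (SE 0.0752, adjusted p = 3.30e-17) and 0.97 in BM against WT (SE 0.0673, adjusted p = 3.14e-11).

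Within 1 Mb of Zeb2, 2 other genes could be tested. Arhgap15, which encodes a Rac GTPase-activating protein, averaged 149 ± 7.04 CPM in KO against 119.6 ± 2.90 in WT, a rise of 1.25-fold (log2 0.32, SE 0.0581, adjusted p = 0.000153), and was 1.92-fold higher in BM than in WT (229.7 ± 13.3 CPM, adjusted p = 4.66e-12). Gtdc1, a glycosyltransferase-like gene, was not called in KO against WT (log2 0.31, 95% interval -0.07 to 0.68, adjusted p = 0.223). The fall in KO was thus not shared by either. Upstream of the Zeb2 start, 2 noncoding genes chosen after their values were seen were near the floor of detection. Vis1, 163.3 kb upstream, had 8 counts over the 3 WT libraries, 1 in Mixed, 3 in BM and 0 in KO. Gm13479, 239.9 kb upstream, had 44 counts in BM, 3 in Mixed, 4 in WT and 0 in KO. Such counts are too few to compare among the fetal liver groups.

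Zeb1, the paralog, was highest in KO, where Zeb2 was lowest, and was not distinguished among the other 3 groups. It (ENSMUSG00000024238) lies on the plus strand at chr18:5591860-5775467. Its levels were 4.35, 3.66 and 3.85 CPM in WT, 4.12, 3.78 and 2.36 in Mixed, 3.57, 3.402 and 3.82 in BM, and 31.6, 32.5 and 32.8 in KO. Each KO library lay above every other library, and the other 3 groups overlapped. In KO it was 8.18-fold higher than in WT (log2 3.03, SE 0.154, adjusted p = 7.47e-13), in place 203 from the highest of 14618 genes by log2 fold change, and 9.41-fold higher than in Mixed (adjusted p = 3.03e-13). BM was 8.96-fold lower than KO (adjusted p = 1.01e-13). Neither Mixed nor BM differed from WT past the threshold: the log2 differences were -0.20 (95% interval -0.54 to 0.14, adjusted p = 0.545) and -0.13 (95% interval -0.47 to 0.21, adjusted p = 0.52). Between BM and Mixed the value was 0.07 (95% interval -0.27 to 0.41, adjusted p = 0.756).

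To set the paralogs side by side, levels must be divided by length, so TPM was used. Zeb2 averaged 58.7 TPM in WT, 73.8 in Mixed, 138 in BM and 7.54 in KO, and Zeb1 1.39, 1.33, 1.69 and 11.002 TPM. Zeb1 made up 2.32 ± 0.292% of the 2 together in WT, 1.78 ± 0.175% in Mixed, 1.20 ± 0.231% in BM and 59.4 ± 1.57% in KO. In every KO library Zeb1 was the more abundant of the pair (57.7 to 60.8%), and in every other library it was at most 2.50%. The share differed by 57.1 percentage points between KO and WT (exact two-sided permutation p = 0.1, the smallest possible). Their sum was 60.1 ± 4.17 TPM in WT, 75.1 ± 10.9 in Mixed, 140.1 ± 10.8 in BM and 18.5 ± 0.942 in KO, so the Zeb1 rise in KO was smaller in transcripts than the Zeb2 fall.

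**Figure D3:**
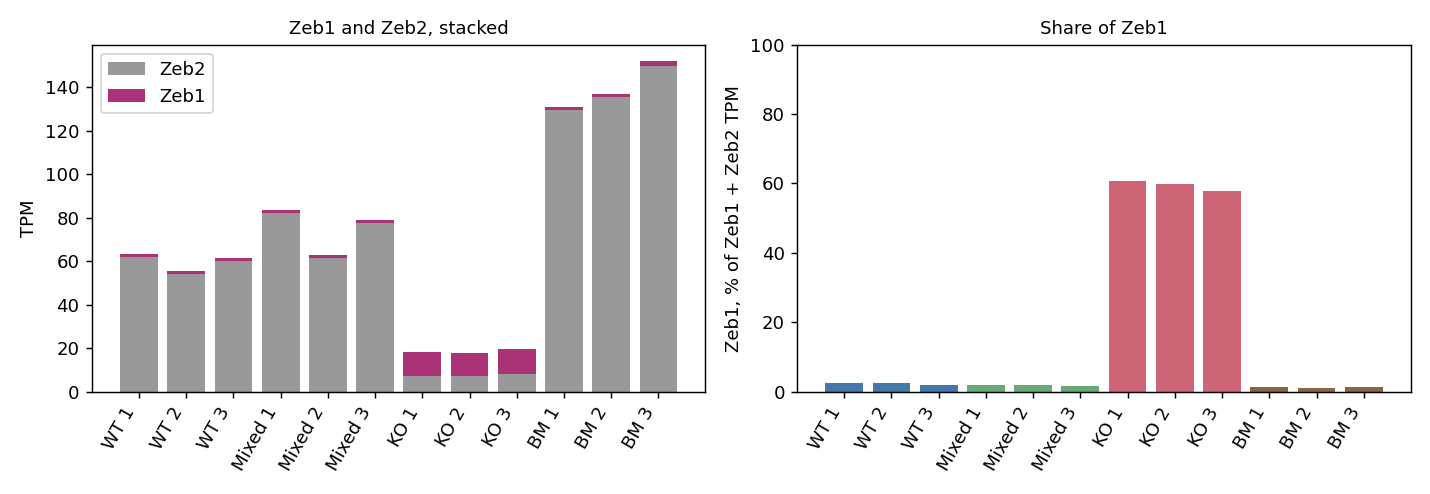
Left, deposited TPM of Zeb2 (grey) and Zeb1 (purple) stacked for each library; right, Zeb1 as a percent of the 2 together. KO libraries total 17.8 to 19.6 TPM with 57.7 to 60.8% from Zeb1, and no other library is above 2.50%.

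Nfil3 varied little. It was at 12.2, 12.2 and 10.4 CPM in WT, 13.3, 12.02 and 11.7 in Mixed, 14.7, 16.98 and 15.2 in KO, and 11.6, 12.1 and 14.9 in BM. All KO libraries lay above all WT and Mixed libraries, and BM 3 reached into the KO range. From highest to lowest the group means were 15.6 ± 1.19 in KO, 12.9 ± 1.80 in BM, 12.3 ± 0.812 in Mixed and 11.6 ± 1.05 in WT. Nfil3 was 1.35-fold higher in KO than in WT (log2 0.43, SE 0.124, adjusted p = 0.00851) and 1.26-fold higher than in Mixed (log2 0.34, SE 0.123, adjusted p = 0.0346). The first call was lost with embryonic day as a covariate (adjusted p = 0.125), without WT 3 (log2 0.35, adjusted p just above 0.05) and on log2 TPM with limma (adjusted p = 0.106). The second was lost without KO 2, KO 3, Mixed 2 or Mixed 3 (adjusted p = 0.139, 0.0525, 0.0943 and 0.115). BM and KO were not separated (log2 -0.28, 95% interval -0.52 to -0.04, adjusted p = 0.0537), nor BM and WT (0.15, interval -0.09 to 0.40, adjusted p = 0.30), BM and Mixed (0.06, interval -0.18 to 0.30, adjusted p = 0.701) or Mixed and WT (0.09, interval -0.15 to 0.34, adjusted p = 0.736).

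**Figure D4:**
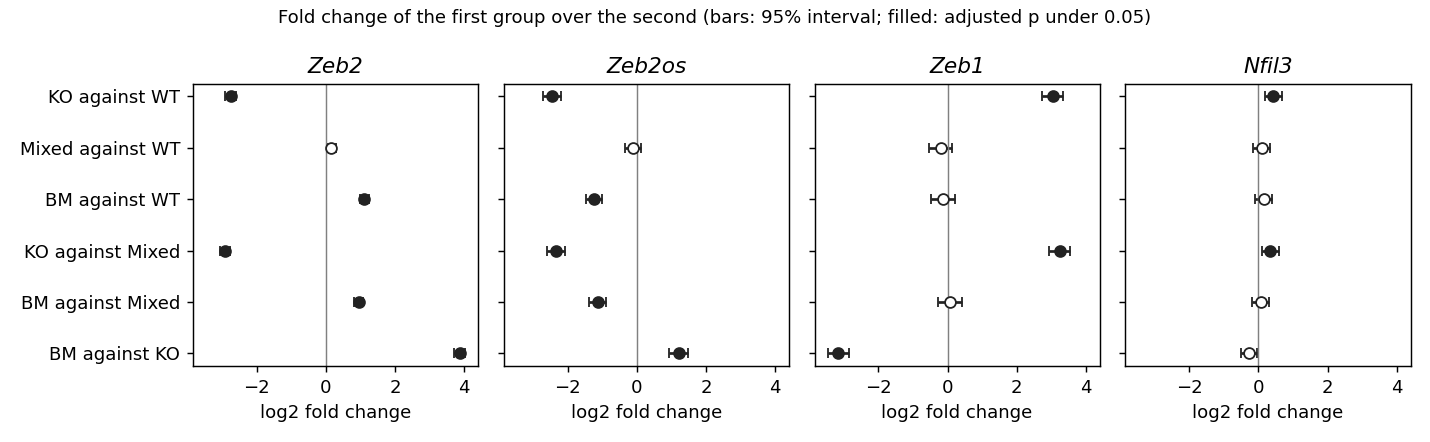
Log2 fold change of the first group over the second for the 4 genes in the 6 comparisons, with bars of 95% intervals; filled points had an adjusted p under 0.05 by edgeR's quasi-likelihood test. In KO against WT the values are -2.75 for Zeb2, -2.45 for Zeb2os, 3.03 for Zeb1 and 0.43 for Nfil3; none of the 4 was called in Mixed against WT.

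Genes whose profiles were closest to each member were found by the root mean square difference of log2 CPM over the 12 libraries, each profile centred, among 8011 genes of at least 3 log2 CPM. Closest to Zeb2 were Ldhb, a lactate dehydrogenase subunit (difference 0.172), F13a1, a coagulation factor subunit (0.189), Dock1, an activator of Rac (0.350), the lectin Cd302 (0.354) and the lysosomal membrane protein gene Dram1 (0.363). Ldhb averaged 88.4 CPM in BM, 37.8 in Mixed, 36.3 in WT and 5.76 in KO, and F13a1, which is also 1 of the 10 monocyte genes above, 6906, 3061, 2421 and 389.96 CPM. Dock1 was at 50.96 CPM in BM, 29.4 in Mixed, 25.8 in WT and 6.30 in KO on average. Closest to Zeb2os were Igfbp4, an insulin-like growth factor binding protein (0.199), the myosin Myo7a (0.220) and Cst7, which encodes cystatin F (0.281). Myo7a averaged 79.9 CPM in WT, 82.1 in Mixed, 39.9 in BM and 13.2 in KO, so that BM lay between KO and the other fetal liver groups, as for Zeb2os. Zeb1 had the sorting nexin Snx22 (0.290), Mxd1, a Myc antagonist (0.328), and Batf3, a bZIP factor of type 1 dendritic cells (0.357). Snx22 was at 79.5 CPM in KO and 6.14 to 6.84 CPM in the other group means. Nfil3 had Ralgapa1, a Ral GTPase-activating protein (0.0860), the inflammasome adaptor Pycard (0.0999) and the kinase Slk (0.103), whose profiles are as flat. Likeness over 4 groups is a description, and these genes share the libraries in which they were measured.

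The list of ZEB corepressors held 19 genes, of CtBP, NuRD and CoREST and the SWI/SNF gene Smarca4, and all were tested. Of these, 3 were higher and 3 lower in KO than in WT. The background was 18.2% of all genes higher and 19.9% lower. Ctbp2, which encodes the CtBP partner of ZEB factors, averaged 22.2 ± 2.45 CPM in KO against 33.2 ± 1.54 in WT (1.49-fold lower), and Hdac2, a histone deacetylase, was 1.47-fold lower. Its partner Hdac1 (249.5 ± 8.95 and 188.5 ± 8.60 CPM, 1.32-fold) and the NuRD subunit Mta3 (1.28-fold) were higher. The other 2 called were Rcor1, higher, and Smarca4, lower. With scaling by library totals alone 6 were lower, and without Mixed 1 the number was 4. It was 2 with DESeq2, with no filter or a filter at 1 CPM, and in fits to fewer groups. Without BM 2, KO 2, KO 3 or WT 2 it was also 2. The median log2 fold change was 0.01, beside -0.03 for all genes. Of 8 other E-box factors of the Snail, Twist and E protein families, 4 were tested, and 1, Tcf12, was called (1.27-fold lower). That call was lost without KO 1, KO 2 or WT 1, with no filter and with embryonic day as a covariate. Tcf4, an E protein named after its value was seen, was at 38.2 ± 0.806 and 36.3 ± 0.962 CPM (adjusted p = 0.455). The 4 not tested, the 2 Twist genes and Snai1 and Snai2, were at most 0.112 CPM in any library.

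Epithelial genes known as ZEB targets in other tissues were higher in KO than in WT and Mixed wherever they were called in those comparisons. Of 28 genes, 12 were tested, and 9 were higher and 0 lower in KO than in WT, beside 18.2% and 19.9% of all genes. All 12 also passed the filter without the KO libraries, while the other 16 stayed at or below 0.729 CPM. Lsr, a receptor of tricellular junctions, averaged 47.8 ± 2.23 CPM in KO against 3.56 ± 0.892 in WT (13.6-fold, adjusted p = 1.75e-14). Spint2, a serine protease inhibitor, was at 60.6 ± 3.75 and 7.20 ± 0.437 CPM (8.40-fold, adjusted p = 2.79e-15), and the tight junction gene Cldn1 at 35.8 ± 7.74 and 5.43 ± 1.20 CPM (6.53-fold, adjusted p = 3.52e-10). Tjp3, a tight junction scaffold, was 4.65-fold higher (adjusted p = 0.000161), and had adjusted p = 0.0519 with embryonic day as a covariate. The other 5 called were Marveld2, Krt8, Krt18, Pkp3 and Spint1. Cdh1, which encodes E-cadherin and is the best known ZEB target, was not called (1.46 ± 0.804 and 0.545 ± 0.091 CPM, adjusted p = 0.0563), nor was St14, a membrane protease gene; both were named after their values were seen. The median over the 12 was 2.12. Against Mixed, which also differed from KO in age, the counts were again 9 higher and 0 lower, beside 18.2% and 18.5% of all genes. In bone marrow against WT 4 were higher and 6 lower, beside 32.1% and 31.9% of all genes, among them Pkp3 (8.94-fold higher) and Cldn1 (6.27-fold lower), both named after their values were seen. Pkp3 and St14 were also higher in BM than in KO (2.20-fold and 1.72-fold, adjusted p = 5.52e-08 and 0.0176). Hepatocyte genes, another epithelial source in fetal liver, summed to 16.2 to 80.7 CPM in KO and 8.66 to 64.8 in WT, with 0 of 6 called. The dendritic cell genes that were high in the same KO libraries are given above, and their part in these values was not tested.

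**Figure D5:**
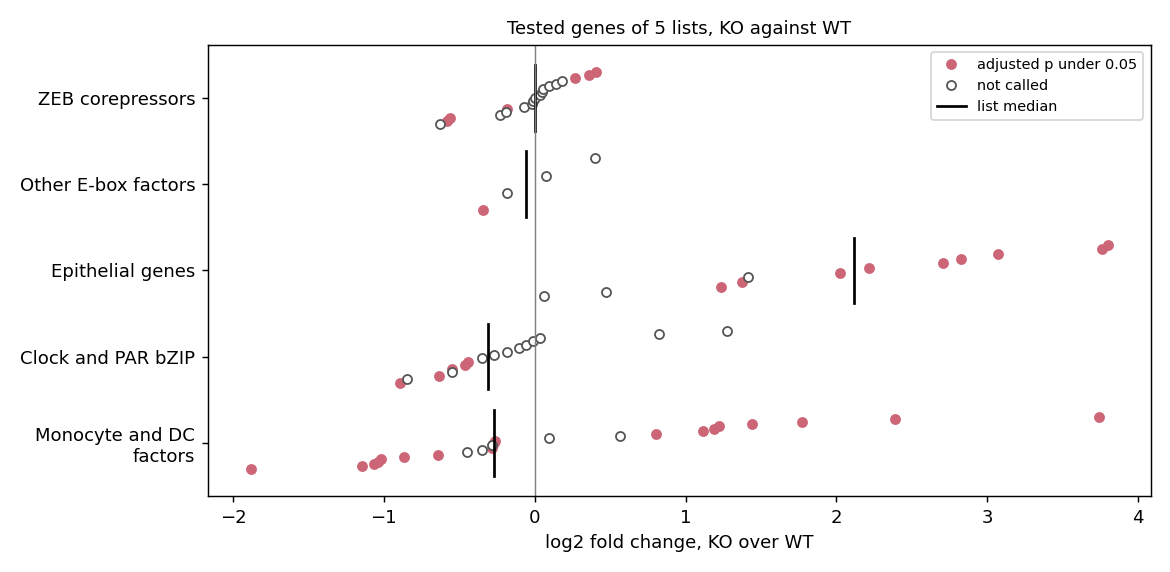
Log2 fold change in KO over WT for each tested gene of 5 lists (rows); filled points had an adjusted p under 0.05, open points did not, and vertical bars give the list median. The epithelial genes have 9 of 12 tested members called higher and a median of 2.12, while the corepressor median is 0.01. Over all genes, 18.2% were called higher and 19.9% lower.

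Around Nfil3, the clock and PAR bZIP list had 16 of 18 members tested, 0 higher and 5 lower in KO than in WT. Over all genes, 18.2% were higher and 19.9% lower. Clock, a core activator of the circadian clock, was at 11.5 ± 0.866 and 17.8 ± 0.254 CPM (1.55-fold lower, adjusted p = 3.72e-05). The PAR bZIP activator Tef (1.86-fold, adjusted p = 0.0255), the clock repressors Cry1 (1.46-fold, adjusted p = 0.0233) and Per3 (1.38-fold, adjusted p = 0.0435) and Cry2 were also lower. The number lower fell to 2 without KO 2 or KO 3 and to 3 without WT 1 or WT 3. With embryonic day as a covariate the number lower also fell and the number higher rose. The number higher was 1 with DESeq2, with the 9 fetal liver libraries alone or with only the 2 groups. Without KO 2, Mixed 1, Mixed 3 or WT 3 it was also 1, and with no filter 2. The calls of Tef, Cry1 and Per3 were each lost when certain single libraries were left out. Those of Tef and Cry1 were also lost with limma on log2 TPM, and that of Tef with only the 2 groups (adjusted p = 0.0544). That of Per3 was lost with DESeq2 (adjusted p = 0.0618), RLE scaling (0.0511) and a filter at 1 CPM (0.0521) or none (0.129). It was also lost in fits to fewer groups (adjusted p = 0.0661 and 0.0716). With embryonic day as a covariate Tef and Per3 had adjusted p = 0.239 and 0.0667. The list median was -0.31. In bone marrow against WT 9 were higher and 3 lower, beside 32.1% and 31.9% of all genes. Named after their values were seen, the nuclear receptor gene Nr1d2 stood at 9.48 ± 0.468 CPM in BM and 0.578 ± 0.157 in WT, and the PAR bZIP activator Dbp at 2.40 ± 0.209 and 0.0771 ± 0.0695 CPM. Dbp was at most 0.256 CPM in any fetal liver library, so it passed the low-count filter through BM alone. A gene kept in this way could be called in BM against WT only as higher. The counts of 9 and 3 were not corrected for such genes. Nfil3 itself was not called in BM against WT.

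In the circuit of monocyte and dendritic cell factors around Zeb2 and Nfil3, 8 of 23 tested genes were higher and 10 lower in KO than in WT. The shares over all genes were 18.2% higher and 19.9% lower. Id2, an inhibitor of E proteins, was at 2485 ± 95.1 and 474.8 ± 32.7 CPM (5.23-fold higher), and Batf3 at 57.0 ± 5.45 and 4.24 ± 0.447 CPM (13.4-fold higher). Irf8, which marks both monocyte and type 1 dendritic cell fates, was 2.71-fold higher, named after its value was seen. The granulocyte factor Cebpe was 3.42-fold higher, and Cebpa, which drives myeloid commitment, 3.69-fold lower (1.14 ± 0.117 and 4.24 ± 0.588 CPM, adjusted p = 4.75e-07). Maf, the gene of cMaf in the series title, also named after its value was seen, was not called (9.99 ± 2.44 and 13.6 ± 1.43 CPM, log2 -0.45, 95% interval -0.80 to -0.10, adjusted p = 0.0549). In Mixed against WT 3 of the 23 were higher and 0 lower (4.21% and 3.87% of all genes), and in BM against WT 11 were higher and 7 lower (32.1% and 31.9% of all genes).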

How the data were processed

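Each library was prepared from monocyte RNA with the Takara-Clontech SMARTer kit for low input, which is not described as keeping strand, per the labels' protocols. The authors deposited estimated counts and TPM per gene for 12 libraries. DRAGEN, STAR, Subread, featureCounts and Salmon and the build mm10 are named in the submitters' processing notes, with no role, and how reads were divided between overlapping genes is not given in the sources used here. Of the nonzero estimated counts that the authors deposited, 28.5% were not whole, and all were rounded for testing. After removal of 287 repeated entries of 55774, 55487 genes remained, and edgeR's filterByExpr (minimum count 10, minimum total 15) kept 14618. Scaling was by TMM, and 1 quasi-likelihood fit (glmQLFit, robust) with 1 mean for each group over the 12 libraries gave 6 comparisons, two-sided, adjusted by Benjamini-Hochberg over all genes tested and called under 0.05. The common biological coefficient of variation was 0.0917. Ratios of TPM or of counts were compared with exact permutation tests. The members and the gene lists were chosen with earlier results of these data known. Named genes were the 4 members, the closest profiles (5 for Zeb2, 3 for the others), tested genes within 1 Mb of Zeb2 and, for each list, up to 4 called in KO against WT with the largest change, and all others were named after their values were seen. Alternatives were other scalings, filters and tools, fewer libraries, embryonic day, the replicate number, log2 of the deposited TPM plus 1 or 0.1 with limma, and leaving out each library. Replicate libraries differed by more than sampling noise (lowest chi-square per degree of freedom 4.63). The fit was also run on simulated counts with the same spread for every gene and changes in KO alone. That setting is simpler than these data, so the run does not bear on how reliable the calls are. The tools were DESeq2 1.42.0, limma 3.58.1 and edgeR 4.0.16, run in R 4.3.3.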

Additional observations from a re-analysis of the deposited data

How the results depend on the processing

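Over the alternatives, the calls of Zeb2, Zeb2os and Zeb1 in KO against WT held in 25 of 25, 24 of 24 and 25 of 25 fits, with log2 fold changes of -2.95 to -2.65, -2.55 to -2.27 and 2.33 to 3.10. Among the members, calls were lost or gained most often for Nfil3, and the cause was not tested. In KO against WT it was 0.38 with embryonic day as a covariate and 0.27 and 0.24 with limma on log2 TPM plus 0.1 and plus 1, none of them called, and 0.35 to 0.47 with a library left out. In KO against Mixed it was 0.24 on library totals and 0.17 and 0.15 with limma, not called, and 0.28 to 0.39 with a library left out. In BM against KO it was called with DESeq2 (-0.30), RLE (-0.30), upper-quartile scaling (-0.31), a filter at 1 CPM (-0.32) and no filter (-0.33), and ran from -0.40 to -0.21 with a library left out (called without BM 3 or WT 3). In BM against Mixed it ran from -0.059 (without BM 3) to 0.13. Uncalled Zeb1 values changed sign in BM against WT with limma (0.24 and 0.16) and in BM against Mixed without Mixed 3 (-0.14, to 0.22 with another library left out and 0.31 with limma). Zeb2 in Mixed against WT ran from 0.11 to 0.23 with a library left out, and was 0.32 with limma on log2 TPM plus 0.1 or 1. Genes called in Mixed against WT numbered 399 with embryonic day as a covariate and 414 to 1457 with a library left out, against 1180; the lowest was without Mixed 1, then WT 1 (464), Mixed 3 (665) and WT 2 (688). With genes of at least 1 log2 CPM, Eng (0.314) and Kifc3 (0.322) came among the 5 closest to Zeb2. On library totals the median of all genes in KO against WT shifted by -0.102, and 6 rather than 3 corepressor genes were called lower. Leaving out single libraries for the 2 ratios was chosen after seeing the data, and the Zeb1 share difference of KO and WT then ran from 56.4 to 57.9 points. Deviations of same-numbered libraries had correlations of -0.035 to 0.069 over 18 pairs, 0 of them above 0.1, beside -0.066 to 0.046 for differently numbered ones, so the numbers were not taken as pairs. With the replicate number as a block, 5525 genes were called in KO against WT beside 5565, and no member's call changed.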
